A study of Mus musculus with 81 samples.

Results

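Cox7a2l, also called SCAF1 or SCAFI, was followed across the livers of a mouse genetic reference population on a chow and on a high-fat diet. It is 1 of 21765 genes named in the deposited table, and was read at every probe set with that symbol, 2 of 35556 in all, numbered 10399677 and 10453254. The gene was selected on the measured scores themselves, since these probe sets differ in their diet and strain patterns. Their diet and strain values are therefore given as a description, with no test, and tests are kept for other genes.

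Cox7a2l resembles the complex IV subunits Cox7a1 and Cox7a2 and takes part in joining respiratory complex III to complex IV in the inner mitochondrial membrane. Supercomplexes of complexes I, III and IV are called respirasomes. The C57BL/6J strain is known for a short form of the protein that supports this joining poorly, and whether and where that matters for respiration has been debated. Paralogous subunits occupy the same place in complex IV in different tissues, Cox7a1 mostly in heart and skeletal muscle and Cox7a2 more widely, liver included. An array measures transcripts, so none of the values below is a level of protein or of an assembled complex.

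Liver RNA of fasted male mice aged 29 weeks was hybridised to Affymetrix arrays, 41 from mice on chow (Harlan 2018) and 40 from mice on a high-fat diet (Harlan 06414) begun at 8 weeks of age. The mice were inbred BXD strains, whose genomes are fixed mosaics of C57BL/6J and DBA/2J, and both parental strains. In all, 39 strains (37 BXD strains and the 2 parents) had an array on each diet, and BXD50 (high fat), BXD60 and BXD92a (chow) had 1 array. No strain carried an engineered allele according to the labels, and every group was fasted overnight. Each array was a pool of equal RNA amounts from roughly 5 mice sharing strain and diet, so the spread between animals is not measured. In a whole liver, fewer cells of a type and less RNA per cell cannot be told apart.

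Values are expression scores. Each array's scores average 8, with an SD of 2, over its probe sets. The sources used here state no log base, so differences are in score units, with no fold change. Array medians lay between 7.66 and 7.81. The 7 hepatocyte markers (Alb, Apoa1, Ttr and others) had a mean score between 14.7 and 15.1 on every array. The mean of 17 pancreatic acinar markers was 9.15 on the BXD63 high-fat array and 8.57 on the DBA/2J chow array, and at most 7.38 on the other 79 arrays. Without DBA/2J and BXD63, of 147 genes in the lists, paralogs and neighbours, 3 lost and 4 gained the call for diet and 5 lost and 3 gained that for strain. The values of Cox7a2l without them stand beside its results or under the dependence on the processing. The strains BXD73, BXD80 and BXD103 resembled each other, as did BXD65 and BXD97: these pairs had the 4 highest of 741 correlations between strains (r of 0.51 to 0.60 over 4871 genes that differed between strains, against a median of -0.03).

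The promoter of Cox7a2l is printed as the reference sequence of the annotated gene, since the sequences of the array probes were not used here. It is RefSeq's sequence of the 250 bases before the annotated start, at chr17:83514334-83514583 on the minus strand (GRCm38.p6), 5′ to 3′, with a GC box in capitals.
Cox7a2l promoter: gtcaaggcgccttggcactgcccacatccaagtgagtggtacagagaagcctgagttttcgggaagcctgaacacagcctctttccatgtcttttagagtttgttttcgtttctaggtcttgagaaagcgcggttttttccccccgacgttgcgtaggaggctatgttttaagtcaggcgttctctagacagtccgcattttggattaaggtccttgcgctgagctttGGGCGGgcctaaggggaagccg
Its content of G and C was 52%. A window of 300 bases, which adds the first 50 of the transcript, was searched on both strands for 6 motifs, and no matches overlapped. The GC box GGGCGG, bound by Sp1, matched 2 times, at bases 229 to 234 and 263 to 268, and is held by 35.7% of the 32851 promoters of this length. There was no match to TGACG (core of the cyclic AMP response element, held by 20.8%), TGATGNAA (C/EBP-ATF response element, 3.97%), the core motif of NRF1 (4.60%), CCGGAAG (ETS factors, 8.86%) or AAGGTCA (half-site of estrogen-related receptors, 4.72%). A match is a description of the letters and not of binding.

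The order of the deposited table places the probe sets apart. The table is sorted by probe set number, and for 87.1% of the 23765 probe sets with a gene placed on a GRCm38.p6 chromosome the probe sets on both sides named genes of the same chromosome. In that order 10453254 lay between Hmgb1, a gene of chromosome 5, and Kcng3, which is also next to Cox7a2l in the annotation. Of its 20 nearest placed probe sets, 18 named genes of chromosome 17, where Cox7a2l is annotated. Probe set 10399677 lay between Hpcal1 and Cys1, and 19 of its 20 nearest placed probe sets named genes of chromosome 12 and 0 named genes of chromosome 17. Such a mismatch, with both flanks on 1 other chromosome, was found for 885 placed probe sets (3.72%). The files give no probe position, so which transcripts each probe set detects was not tested, and a value of either is uncertain where a near-identical copy of the gene shares its probes.

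On chow the score of 10453254 over the 39 strains had a lowest value of 8.31 (BXD103), a median of 8.93 and a highest of 9.55 (BXD63). On high fat these were 8.23 (BXD69), 8.75 and 9.31 (BXD44). The ranges overlapped almost wholly, but within strains the probe set was lower on high fat in 35 of 39. Its mean was 8.99 ± 0.33 on chow and 8.75 ± 0.30 on high fat (SD, n = 39 strains), a difference of -0.24 ± 0.03 (SE). The widest decrease was in BXD75, where the score was 9.19 on chow and 8.32 on high fat, followed by BXD48 with 9.22 and 8.66 and BXD83 with 9.545 and 9.03. The 4 strains in which it was higher on high fat were BXD44 (by 0.15), BXD80 (0.12), BXD99 (0.05) and BXD97 (0.04), all smaller than the SD of the 39 differences (0.20).

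For 10399677 the score on chow ran from 9.33 (BXD101) over a median of 9.93 to 10.5 (BXD79). On high fat it ran from 9.365 (BXD43) over 9.87 to 10.4 (BXD90). Here the diets gave no common direction, with 23 strains lower and 16 higher on high fat. The mean was 9.91 ± 0.29 on chow and 9.86 ± 0.26 on high fat (SD, n = 39 strains), a difference of -0.05 ± 0.03 (SE). BXD75 again had the widest decrease, from 10.25 to 9.80, and BXD96 the widest increase, from 9.90 to 10.2. Over strains the diet differences of the 2 probe sets had a Pearson r of 0.20 and a Spearman rho of 0.11 (n = 39), and r was 0.05 without BXD75 and BXD96, the 2 strains farthest from the median of 10399677. Both probe sets were read on the same arrays and standardised with them, so these correlations are a description.

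**Figure D1:**
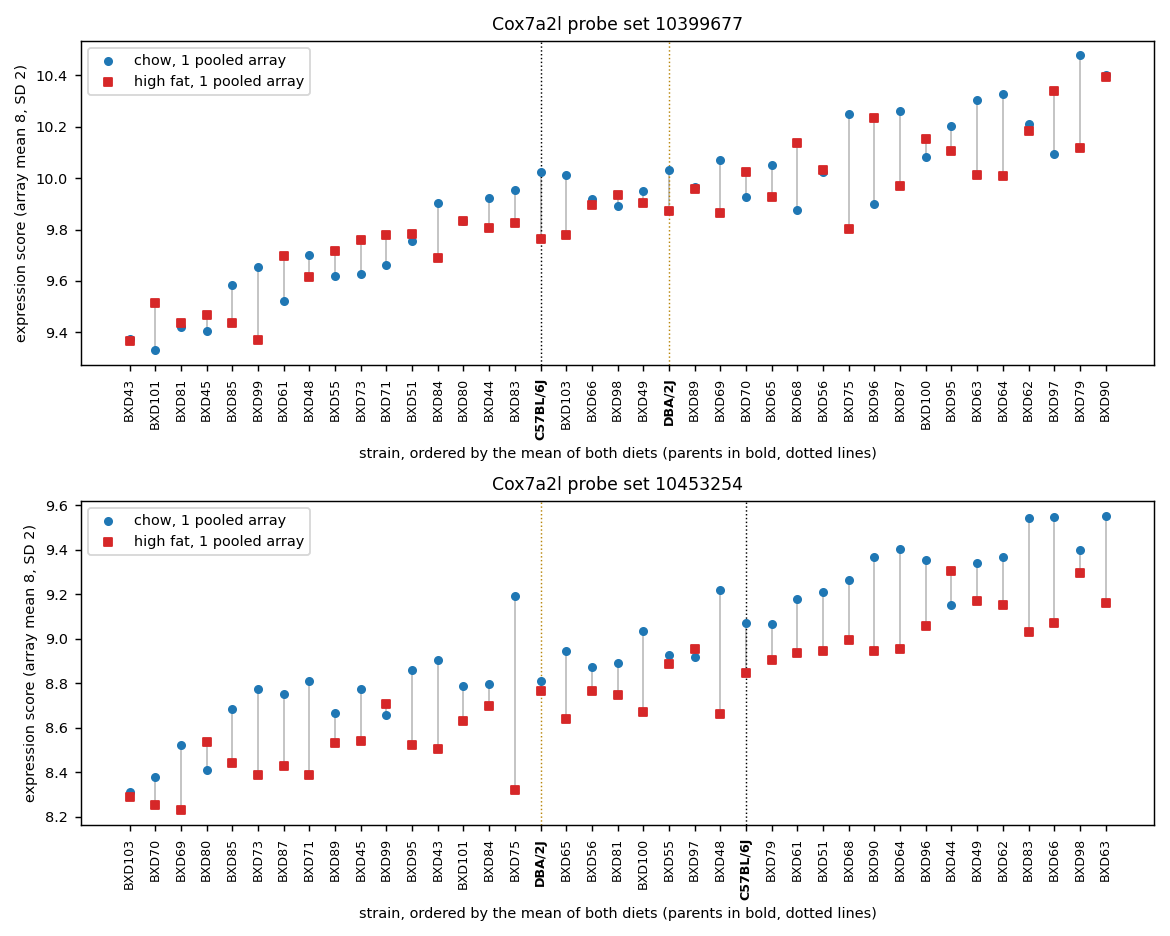
Expression score (y axis) of each Cox7a2l probe set in the 39 strains with both diets, ordered by strain mean (x axis). Circles are chow and squares are high-fat pooled arrays, joined by a line within a strain. For 10453254 the high-fat square lies below the chow circle in 35 of 39 strains, for 10399677 in 23 of 39. Both parents lie inside the range of the BXD strains.

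Strain was the main source of spread for both probe sets, and the order of strains was largely kept between diets. Of the variance about the diet means, 79.6% lay between strains for 10453254 and 77.8% for 10399677. The chow and the high-fat score of a strain had a Pearson r of 0.80 and a Spearman rho of 0.80 for 10453254 (n = 39), and 0.78 and 0.75 for 10399677. Without the 2 strains farthest from the chow median r was 0.78 and 0.77, and without DBA/2J and BXD63 it was 0.79 for both.

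The mean of both diets for 10453254 was lowest in BXD103 (8.30), BXD70 (8.32), BXD69 (8.375) and BXD80 (8.47). It was highest in BXD63 (9.36), BXD98 (9.35), BXD66 (9.31) and BXD83 (9.29). The mutually similar strains BXD103, BXD80 and BXD73 held ranks 1, 4 and 6 from the bottom. For 10399677 the lowest means were those of BXD43 (9.37), BXD101 (9.42), BXD81 (9.43) and BXD45 (9.44), and the highest those of BXD90 (10.4), BXD79 (10.3), BXD97 (10.2) and BXD62 (10.2). The largest step between neighbouring strains was 0.10 for both, between BXD69 and BXD80 for 10453254 and between BXD79 and BXD90 for 10399677. That is below the residual SD left after strain and diet (0.14 and 0.13), which is also the standard error of a difference between 2 strain means, so neighbours in either order are not resolved. With 39 means over a range of 1.06 and 1.03, small steps do not show whether strains fall into classes.

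The parents lay in the middle of both orders. For 10453254 C57BL/6J had 9.07 on chow and 8.85 on high fat, and DBA/2J 8.81 and 8.77. The difference C57BL/6J minus DBA/2J was 0.17 ± 0.14 (SE, 2 arrays each), and 0.08 on high fat alone, which leaves out the DBA/2J chow array with acinar transcripts. For 10399677 C57BL/6J had 10.025 on chow and 9.76 on high fat and DBA/2J 10.033 and 9.87, a difference of -0.06 ± 0.13, and -0.11 on high fat alone. The BXD strains went past both parents on each side. For 10453254 the strain mean of 16 of 37 BXD strains was below the lower parent and that of 14 above the higher. Of these, 4 and 6 were beyond it by more than 2 residual SDs. For 10399677 the counts were 16 below and 17 above, of which 7 and 3 were beyond 2 residual SDs.

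The strain patterns of the 2 probe sets resembled each other weakly. Over strain means Pearson's r was 0.31 and Spearman's rho 0.30 (n = 39), with r of 0.28 on chow and 0.32 on high fat. It was 0.28 without DBA/2J and BXD63 and 0.33 without the 5 similar strains. BXD103, with the lowest mean of 10453254, ranked 18 from the bottom for 10399677 (chow 10.011, high fat 9.78). BXD87 ranked 7 for 10453254 (8.75 and 8.43) but 31 for 10399677 (10.3 and 9.97). In the other direction BXD61 ranked 27 for 10453254 (9.18 and 8.94) and 7 for 10399677 (9.52 and 9.70). BXD63 (ranks 39 and 34) and BXD62 (35 and 36) were high for both, and BXD85 (rank 5 in each) was low for both.

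**Figure D2:**
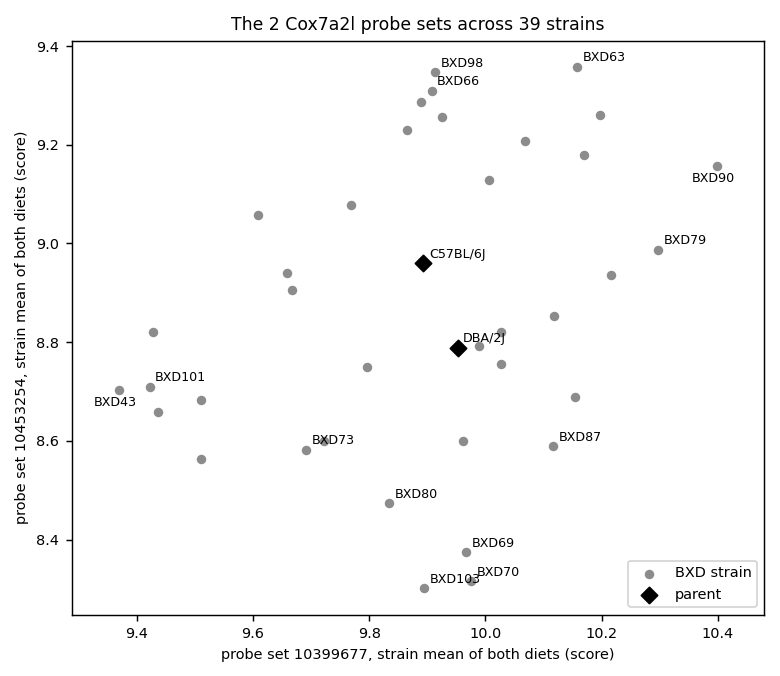
Strain mean over both diets of probe set 10399677 (x axis, score) against that of 10453254 (y axis, score) for 39 strains. Grey points are BXD strains, black diamonds the parents. The points scatter widely (r = 0.31), with the parents near the centre and BXD103, BXD70 and BXD69 low on the y axis alone.

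Genes with the most similar strain pattern were ranked by Pearson's r over the 39 strain means, among all probe sets with 1 gene symbol. In BXD strains, genes close together on a chromosome share parental segments, and all points share arrays and standardisation. The values are the extremes of 21765 genes and are a description. For 10453254 the 6 highest were Kidins220 (r = 0.69), a neuronal scaffold of protein kinase D, 1700030C10Rik (0.68), Zfp125 (0.67), LOC100043377 (0.65), Flii (0.64), an actin-binding gelsolin relative, and Ttc27 (0.63). Kidins220 and 1700030C10Rik are on chromosome 12, Ttc27 on 17 and Flii on 11, while Zfp125 and LOC100043377 were not placed. In the table order, however, the probe set of Zfp125 lay between probe sets of the same chromosome 12 gene. That of LOC100043377 lay between those of 1700030C10Rik and Kidins220. The lowest r were those of Id2 (-0.63), an inhibitor of basic helix-loop-helix factors, Gm10433 (-0.62) and 9530077C05Rik (-0.61). The first 2 of these are also on chromosome 12.

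For 10399677 the 6 highest were Acp1 (0.65), a low molecular weight phosphatase, Lpin1 (0.65), the phosphatidate phosphatase and coactivator lipin 1, Saa4 (0.64), a serum amyloid A protein, 1700030C10Rik (0.63), Smn1 (0.63), a factor of spliceosomal particle assembly, and Gm10786 (0.61). Acp1, Lpin1 and 1700030C10Rik are on chromosome 12, Smn1 and Gm10786 on 13 and Saa4 on 7. The lowest were Trip10 (-0.65), Fam57b (-0.62) and Lcn8 (-0.60), on chromosomes 17, 7 and 2. A gene was ranked at whichever of its probe sets was most similar, and 3 of the genes named had others that differed. Acp1 had 5 probe sets, and the other 4 had r between -0.52 and -0.34 with 10399677. For 1700030C10Rik, 2 of 3 probe sets had the same r and the third stood at 0.15 with 10399677 and 0.18 with 10453254. The other probe set of Zfp125 stood at 0.10 with 10453254. In the 50 most similar genes of each probe set, a summary chosen after the values were seen, 6 genes were shared. They were 1700019G17Rik, 1700030C10Rik, Fggy, Kidins220, Lpin1 and Zfp125.

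By chromosome, both probe sets shared likeness with chromosome 12 and only 10453254 had many of its most similar genes on chromosome 17, as counted without a test. These counts take the highest r alone. Genes with a strongly negative r, such as Trip10 on chromosome 17 for 10399677, are not in them. Of the 50 genes most like 10453254, 47 were placed, 7 on chromosome 12 and 8 on chromosome 17 (14.9% and 17.02%, against 3.14% and 4.87% of all placed genes). Of those most like 10399677, 49 were placed, 6 on chromosome 12 (12.2%) and 0 on 17. With each gene read at its probe set of highest mean, the counts on chromosomes 12 and 17 were 4 and 11 of 48 for 10453254 and 5 and 0 of 50 for 10399677. Without DBA/2J and BXD63 the counts on chromosomes 12 and 17 were 5 and 6 of 46 for 10453254 and 5 and 0 of 49 for 10399677. With high-fat arrays alone the counts were 4 and 5 of 48 for 10453254 and 7 and 3 of 48 for 10399677. With chow arrays alone they were 8 and 6 of 47 for 10453254 but 1 and 1 of 48 for 10399677, so for that probe set the count on chromosome 12 rested on the high-fat arrays and the means.

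Of the genes flanking 10399677 in the table order, Hpcal1 is number 69 along chromosome 12 and Cys1 number 89. The placed probe set before Hpcal1 named gene number 85. The midpoint of Hpcal1 and Cys1 can thus lie to one side of the place that the table order gives this probe set. Along chromosome 12, 101 genes, each at its probe set of highest mean, lay within 50 genes of that midpoint. An r of at least 0.4 or at most -0.4 was found for 14 of these (7 and 7) with 10399677 and for 14 (9 and 5) with 10453254, 13.9% each, against 4.30% and 3.10% of all genes. Within 50 genes of Cox7a2l on chromosome 17 there were 95 genes. Here 12 (11 and 1) passed these limits for 10453254, or 12.6%, and 4 (2 and 2) for 10399677, or 4.21%. Within 100 genes the shares on chromosome 12 were 8.94% for both probe sets, and on chromosome 17 9.66% for 10453254 and 6.21% for 10399677. Without DBA/2J and BXD63 the shares within 50 genes were 16.8% for 10399677 and 11.9% for 10453254 on chromosome 12, and 6.32% and 11.6% on chromosome 17. Those of all genes were then 4.54% and 4.03%.

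**Figure D3:**
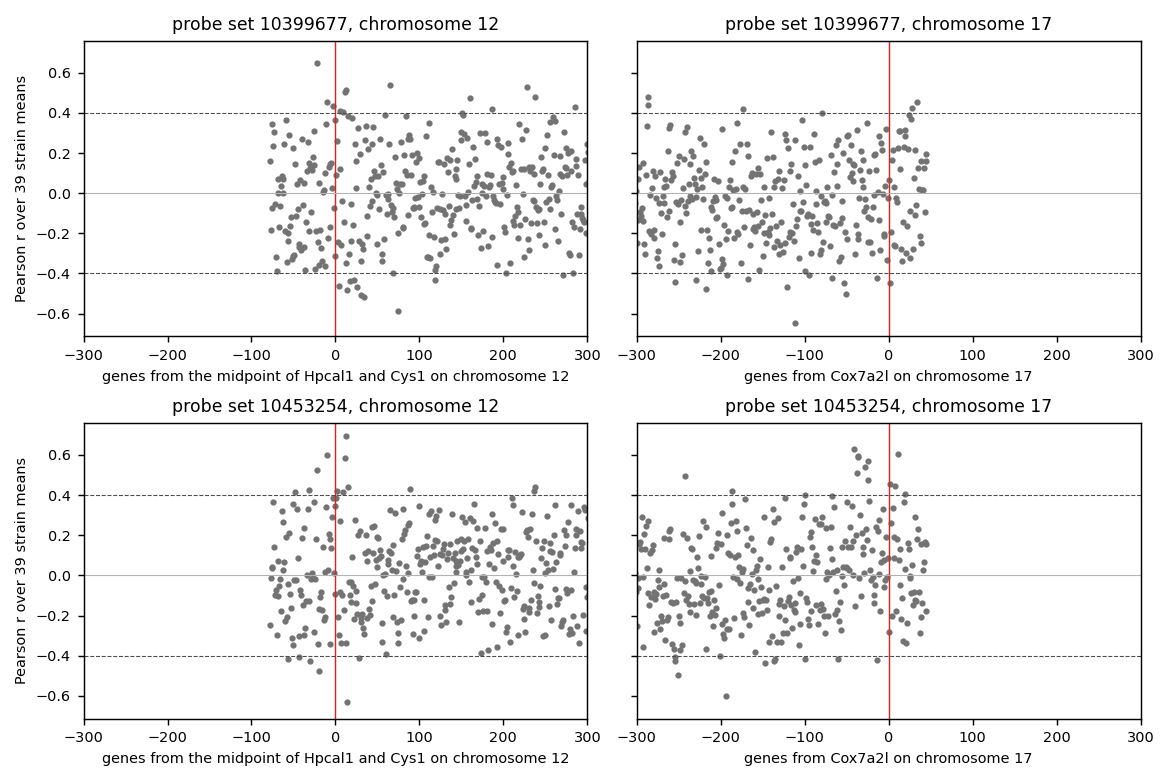
Pearson r over 39 strain means between a Cox7a2l probe set and each gene at its probe set of highest mean (y axis) by gene order (x axis, number of genes from the red line) on chromosomes 12 and 17. Dashed lines mark 0.4 and -0.4. Within 50 genes of the red line, 14 of 101 genes lie beyond the dashed lines on chromosome 12 for each probe set, and on chromosome 17 12 of 95 for 10453254 and 4 of 95 for 10399677.

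The nearest annotated genes were tested across all probe sets. Of the 5 genes on each side of Cox7a2l, 4 differed between strains, where 22.4% of all genes did (limma moderated F-test, Benjamini-Hochberg adjusted). They were Haao, an enzyme of quinolinate synthesis (adjusted p = 6.04e-08), Mta3, a chromatin remodelling subunit (3.15e-05), the sodium-calcium exchanger Slc8a1 (0.0066) and the microtubule-associated Eml4 (0.0373, and 0.0503 without DBA/2J and BXD63). Mta3, the second gene to one side, had an r of 0.46 with 10453254 and of -0.45 with 10399677. For Haao these were 0.26 and -0.19. On high fat Kcng3, a modifier subunit of potassium channels, was lower by 0.33 ± 0.03 (SE; limma, adjusted p = 1.59e-11) and Haao higher by 0.08 ± 0.03 (adjusted p = 0.03). The other 8 did not pass the diet test, which 53.7% of all genes passed.

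Beside Cox7a2l, its 2 paralogs were read at 1 probe set each and moved in opposite directions. Cox7a2, the form used in liver, had a chow score from 10.98 over a median of 11.2 to 11.4 and a high-fat score from 11.2 over 11.4 to 11.6. It rose by 0.13 ± 0.02 on high fat (SE, n = 39 strains; limma, adjusted p = 3.79e-06) and was higher in 31 of 39 strains. Cox7a1, the muscle form, had a chow score from 8.03 over 8.46 to 8.95 and a high-fat score from 7.79 over 8.32 to 9.155. It was lower on high fat, by -0.13 ± 0.04 (adjusted p = 0.0138), in 27 strains. Strains differed in Cox7a1 (adjusted p = 0.0413), and Cox7a2 did not pass that test (0.288), with 24.3% of its variance between strains. Across strain means (n = 39) r with 10453254 was 0.24 for Cox7a1 and -0.003 for Cox7a2, and with 10399677 -0.04 and 0.05.

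Around Cox7a2l stand the genes that form, build or hold together the respirasome. The diet test passed for 53.7% of all genes, 27.6% higher and 26% lower on high fat, and the strain test for 22.4%, so counts of list members are read against those shares. Of 20 measured supercomplex and cristae factors, 7 rose, 0 fell and 13 did not pass (median difference 0.02, against 0.004 for all genes). Higd2a, which helps complex IV assemble, rose by 0.28 ± 0.04 in 35 of 39 strains (limma, adjusted p = 1.94e-08). Apool, a subunit of the cristae-shaping MICOS complex, rose by 0.20 ± 0.05, and Pgs1, an enzyme of cardiolipin synthesis, by 0.14 ± 0.03. Higd1a, a relative of Higd2a, rose by 0.18 ± 0.05 at the probe set with the higher mean, while its probe set of higher variance stood at -0.11 (adjusted p = 0.0536).

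Strains differed in 3 of these 20 factors. Ptpmt1, a phosphatase of the cardiolipin pathway, had 95.1% of its variance between strains (limma F-test, adjusted p = 5.32e-19), and its r with them was 0.17 for 10453254 and 0.04 for 10399677. Stoml2, an inner-membrane scaffold protein, also differed (adjusted p = 0.00277), with r of -0.13 and -0.39.

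Of 18 complex IV subunits, 6 rose, 4 fell and 8 did not pass (median difference -0.002). Among those that rose were Cox7a2, the testis forms Cox8c (0.29 ± 0.03, higher in 36 of 39 strains; limma, adjusted p = 7.76e-10) and Cox7b2 (0.14 ± 0.03), and Cox4i2, an alternative form of subunit 4 (0.16 ± 0.03). Cox6a1 (0.09 ± 0.03) and Cox5b (0.06 ± 0.02, at its probe set of higher mean) rose too. All 4 that fell are forms used mainly outside liver, namely the muscle forms Cox6a2 (-0.13), Cox7a1 (-0.13) and Cox8b (-0.10) and the testis form Cox6b2 (-0.13). Of a list of 7 muscle markers, which holds Cox6a2 and Cox8b too, 5 were lower and 1 higher on high fat, with a mean score between 7.74 and 8.27 on chow arrays and between 7.67 and 8.24 on high-fat arrays. Whether these probe sets read their own transcripts in liver was not tested. Strains differed in 5 subunits, most clearly Cox6a1 (adjusted p = 0.000268) and Cox5b (0.00283).

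Of 21 complex IV assembly factors, 9 rose, 3 fell and 9 did not pass (median difference 0.06). Smim20, listed as 1810013D10Rik and needed early in the assembly of subunit 1, rose in 38 of 39 strains, by 0.32 ± 0.03 (limma, adjusted p = 1.11e-12). Cox18, which inserts part of subunit 2 into the membrane, rose by 0.19 ± 0.03, and Tmem177, a factor of subunit 2 biogenesis, by 0.19 ± 0.04. Cox20, a chaperone of subunit 2 listed as Fam36a, fell by 0.19 at its brighter probe set, while its probe set of higher variance stood at 0.08 (adjusted p = 0.0838). Strains differed in 5 of the 21, among them Cox18 (adjusted p = 1.73e-08) and Coa5 (5.49e-06).

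Complex III, the partner that Cox7a2l joins to complex IV, was measured in 15 genes. Of these subunits and assembly factors, 1 rose, 2 fell and 12 did not pass (median difference -0.01). The Rieske protein Uqcrfs1 fell by 0.13 (SE 0.03; limma, adjusted p = 4.78e-05; lower in 32 of 39 strains), the hinge protein Uqcrh by 0.10 (lower in 33), and the assembly factor Uqcc2, listed as 2900010M23Rik, rose by 0.21 ± 0.04. Strains differed in 4, Uqcc2 (adjusted p = 0.0111) and Lyrm7 (0.0252), an assembly factor for the Rieske protein, among them. Of 36 complex I subunits 10 rose, 8 fell and 18 did not pass (median difference 0.02), with Ndufc1 and Ndufa3 up by 0.13 ± 0.03 and 0.11 ± 0.03 and Ndufb9 and Ndufb5 down at -0.10 ± 0.02 and -0.09 ± 0.02. The probe set of higher variance of Ndufb5 stood at -0.36 (limma, adjusted p = 1.68e-10). Strains differed in 11, with Ndufa9 (adjusted p = 1.13e-07) and Ndufc2 (4.9e-07) first.

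In cultured cells Cox7a2l is known to be raised through PERK and ATF4, an arm of the integrated stress response. Of 27 measured genes of this response and targets of ATF4, 13 rose, 5 fell and 9 did not pass (median difference 0.08). Gdf15, a secreted stress hormone, rose by 0.40 ± 0.06 in 34 of 39 strains (limma, adjusted p = 1.25e-07), the VLDL receptor Vldlr by 0.35 ± 0.06, the stress-induced Nupr1 by 0.27 ± 0.04 and the mitochondrial folate enzyme Shmt2 by 0.25 ± 0.03. The 5 that fell were Atf4 itself (-0.08 ± 0.03, adjusted p = 0.0167), the amino acid transporter Slc7a5 (-0.11), the transsulfuration enzyme Cth (-0.10), the secreted Stc2 (-0.10) and the proline synthesis enzyme Pycr1 (-0.09). Also among the 13 that rose were Eif2ak3, the gene of PERK (0.16 ± 0.04; limma, adjusted p = 0.0018), Trib3 (0.19), Chac1 (0.16), Ddit4 (0.16), Sesn2 (0.14) and Mthfd2 (0.14). The asparagine synthetase Asns, a target of ATF4, did not pass (-0.11 ± 0.11, adjusted p = 0.42), nor did the stress factor Atf3 (-0.03 ± 0.05). The score of Cox7a2l probe set 10453254 was lower on the same high-fat arrays (-0.24). Probe set 10399677 stood at -0.05 ± 0.03 there, lower in 23 strains and higher in 16. Across strains the list's median r was -0.06 with 10453254 and -0.11 with 10399677, near the medians of all genes (-0.04 and -0.05). These are transcript scores, and whether the stress response has a part in those of Cox7a2l was not tested. Strains differed in 10 of the 27, Fgf21 (adjusted p = 0.000363) and Gdf15 (0.000466) first. Of 7 macrophage and Kupffer cell markers 6 were higher on high fat and 0 lower, with a mean score of 9.21 to 10.8 on chow arrays and 9.44 to 10.7 on high-fat arrays. Their part in these differences was not tested.

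**Figure D4:**
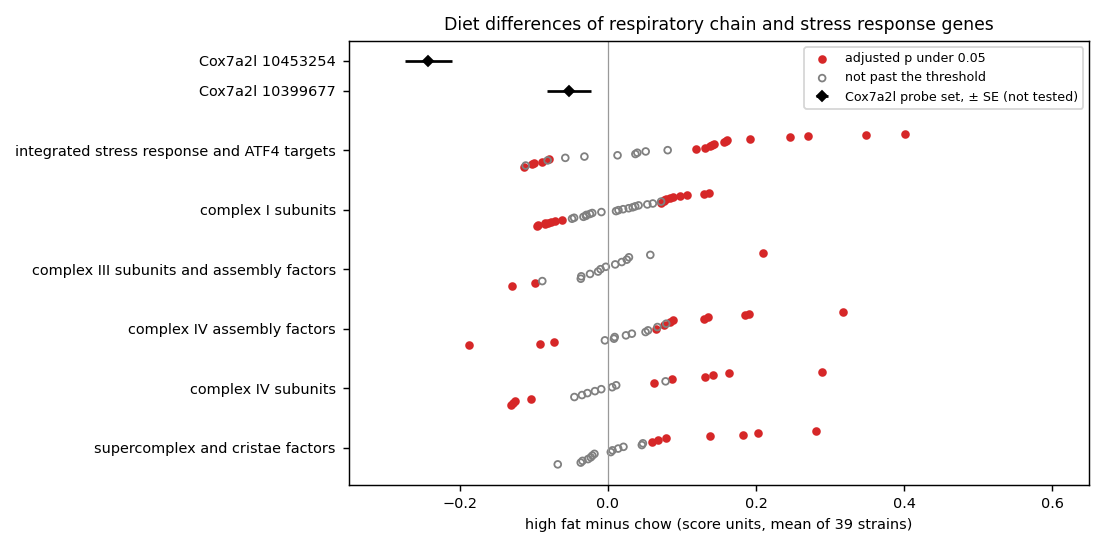
Difference high fat minus chow (x axis, score units, mean of 39 strains) of each measured gene in 6 lists at its probe set of highest mean, with the 2 Cox7a2l probe sets at the top (diamonds, bars ± SE, not tested). Filled points passed the diet test. Probe set 10453254 stands at -0.24 and 10399677 at -0.05.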

How the data were processed

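The authors deposited expression scores for 81 arrays in 2 tables that differed in 0 cells. Per the submitters' processing notes Affymetrix Expression Console was used. Its version, the summarisation, the annotation release and the step that standardised each array to a mean of 8 and an SD of 2 are unknown from the labels. Standardising ties each score to the rest of its array. Symbols came from the deposited annotation: 25096 probe sets had 1 symbol (21765 genes, 20719 matched to RefSeq GRCm38.p6), 2 several and 10458 none. The column BXD92 was read as the sample titled BXD92a.

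limma 3.58.1 in R 4.3.3 (lmFit, eBayes) was fitted to the scores of the 25096 probe sets on 78 arrays with strain and diet as terms, adjusted by Benjamini-Hochberg over all of them with a threshold of 0.05. Pairing comes from the strain names: deviations of a strain's 2 arrays from the diet means correlated with a median r of 0.39, above 0.1 in 38 of 39 strains. A gene was read at its probe set with the highest mean, except in the ranking by r, where any of its probe sets could count. The strain share is the between-strain variance component over the sum of that and the residual. P-values rest on pools, technical spread included. The number of arrays limits the precision. The tests were tested on simulated data.

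Named were all Cox7a2l probe sets, both paralogs, up to 4 diet-called and 2 strain-called members of each list, 5 neighbouring genes each side, and the 6 highest and 3 lowest r. Cox6a2, Cox6b2, Cox8b, Atf4, Slc7a5, Cth, Stc2, Pycr1, Asns, Atf3, Eif2ak3, Trib3, Chac1, Ddit4, Sesn2 and Mthfd2 were named outside this rule after their values were seen. Members, lists and tests were chosen with earlier results of these data known. Left out of the paired fits were BXD50, BXD60 and BXD92a. Alternatives were fits without the strain block, median centring, quantile normalization, array weights, other probe sets and strains left out.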

Additional observations from a re-analysis of the deposited data

How the results depend on the processing

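The diet difference of 10453254 lay between -0.26 and -0.22 under 8 other settings and that of 10399677 between -0.07 and -0.04. Leaving out each strain in turn gave -0.25 to -0.23 and -0.06 to -0.04. With no replicate block for strain the differences were -0.24 and -0.05 on the paired arrays and -0.22 and -0.05 on all 81, with standard errors of 0.07 and 0.06. The paired fit is the one reported. The strain share stayed between 76.9% and 80% for 10453254 and between 75.7% and 79.2% for 10399677. Over all lists 46 genes rose (38 to 49 under the alternatives), 22 fell (16 to 24) and 38 differed between strains (28 to 44). The lists held 20, 18, 21, 15, 36 and 27 measured genes. Of all genes, 27.6% rose, 26% fell and 22.4% differed between strains in the reported fit. The genes named as most similar depended on the measure. Of the 6 for 10399677, 2 were among the first 6 by Spearman's rho, 1 on chow alone and 2 on high fat alone. For 10453254 these were 3 by rho and 0 on high fat alone. With genes at their probe set of highest mean 4 stayed for each. Among supercomplex and cristae factors 1 gene fell with quantile normalization, without DBA/2J and BXD63 and with array weights, against 0. Without the strain block 5 complex I subunits fell, against 8, and 3 stress response genes, against 5, on either set of arrays. At the probe set of higher variance Higd1a stood at -0.11 and Cox20 at 0.084, each opposite in sign to the value reported, and Ndufb5 at -0.36 against -0.09. The causes were not tested. Score units cannot be turned into folds, and signal over background is not known.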

Other observations

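The strains with 1 array entered no comparison. For probe set 10453254 the score was 9.48 in BXD50 on high fat, 8.99 in BXD60 on chow and 8.98 in BXD92a on chow. For 10399677 it was 10.2, 9.73 and 10.2. The BXD50 score of 10453254 was above the highest high-fat value of the 39 paired strains (9.31), and the other 5 values lay within the range of their diet.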
